A study of Mus musculus with 2 samples.

Results

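The secretory pathway module comprised 42 genes of the endoplasmic reticulum (ER), chosen by symbol for their roles in bringing proteins into the ER, folding them there and answering unfolded protein, and all 42 were found among the 19960 genes listed. Their levels were followed in leukocytes of the mouse omentum, a fold of abdominal fat with lymphoid clusters called milky spots, by droplet-based single-cell RNA sequencing. One library came from wild-type (WT) mice and one from *Postn*-DTR mice on the C57BL/6 background. *Postn*-DTR mice are heterozygotes (*Postn* Dtr/+) that carry a receptor for diphtheria toxin (DT), a modified human *Hb-egf*, in the *Postn* gene, so that cells using the *Postn* promoter become sensitive to DT. Mice of both genotypes received a single low dose of DT into the abdomen, and omenta were taken 5 days later. The toxin was thus common to both groups, and loss of one *Postn* copy came with the receptor. Cells of 3 mice were pooled per library, so that mice could not be told apart, the design had no replicates, and no test between the libraries was possible. The age of the mice was not given in the sources used here.

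Proteins bound for secretion enter the ER through the Sec61 channel, lose their signal peptide, are folded by chaperones, gain disulfide bonds and sugar chains, and leave in vesicles or are returned to the cytosol for destruction. When unfolded protein builds up, sensors in the ER membrane switch on the unfolded protein response, whose transcription factors XBP1, ATF6 and ATF4 raise many of these same genes. Plasma cells, which export antibody in bulk, depend on XBP1 and are the classic users of this machinery.

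The WT library held 8654 cells after filtering and the *Postn*-DTR library 5727, with 80152223 and 81011081 unique molecular identifiers (UMIs, each marking one captured transcript) and medians of 5635 and 8472 UMIs per cell. *Postn* itself gave few reads, 84 UMIs in 34 WT cells and 20 UMIs in 8 *Postn*-DTR cells. The libraries shared 65 barcode sequences. Levels below are means over cells in UMIs per 10000 UMIs of the cell, which are not scaled to gene length, and all intervals are 95% intervals that cover counting error only.

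Cells were put in classes by detection of marker genes, and plasma cells were those with at least 50 *Jchain* UMIs per 10000 (a deposited value of 3.93 or more). This gave 600 plasma cells in WT, 6.93% of cells (exact binomial interval 6.41 to 7.49%), and 2054 in *Postn*-DTR, 35.9% (34.6 to 37.1%), with medians of 29509 and 24136 UMIs. The name was checked against genes that the gate did not use. *Sdc1*, the plasma cell surface marker, was detected in 95.2% of the WT and 84.3% of the *Postn*-DTR plasma cells, and *Tnfrsf17*, the BCMA receptor, in 83.8% and 60.8%. *Pax5*, a B cell factor that plasma cells silence, was at 0.0576 and 0.0211 UMIs per 10000, against 2.66 and 1.85 in B2 cells. All 5 T cell markers were above 0 in plasma cells of both libraries but low, with summed levels of 0.38 in WT and 0.075 in *Postn*-DTR against 28.4 and 27.1 in CD4 T cells. The 5 myeloid markers summed to 6.05 and 5.07, against 2747 and 1929 in neutrophils, and erythroid markers were at 0 in WT and 0.0793 in *Postn*-DTR. The 5 stress and early-response genes taken as signs of RNA quality summed to 11.4 in WT and 8.17 in *Postn*-DTR plasma cells, and their part in the results below was not tested.

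Several of the 42 genes carried a shared sign in their promoters. The ER stress element, the sequence bound by ATF6 together with the factor NF-Y, was searched as CCAAT, 9 bases of any kind and CCACG, on both strands of the 300 bases around each start site (250 before, 50 after) in the RefSeq promoters of GRCm38.p6. It stood in 9 of the 32 members with an entry (28.1%), against 37 of 27025 genes (0.137%) and 13 of 7848 genes with a promoter that were measured in plasma cells (0.166%). The 37 and the 13 genes include these 9 members. Since the members were chosen for roles that include answering unfolded protein, their share is not independent of that choice. The elements are shown as a sequence that 9 members have in common, with the motif in capitals.

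*Hspa5* (chr2:34772025-34772043, on the strand of the gene): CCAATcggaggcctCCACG
*Hsp90b1*, far copy (chr10:86705638-86705656, on the strand of the gene): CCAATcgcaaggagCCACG
*Hsp90b1*, near copy (chr10:86705533-86705551, on the opposite strand): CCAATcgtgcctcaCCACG
*Calr* (chr8:84847075-84847093, on the opposite strand): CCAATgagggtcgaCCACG
*Canx* (chr11:50325800-50325818, on the strand of the gene): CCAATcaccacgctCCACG
*Pdia6* (chr12:17266491-17266509, on the strand of the gene): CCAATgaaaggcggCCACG
*Dnajc3* (chr14:118937827-118937845, on the strand of the gene): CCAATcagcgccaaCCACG
*Creld2* (chr15:88819520-88819538, on the opposite strand): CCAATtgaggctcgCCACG
*Derl3* (chr10:75893242-75893260, on the opposite strand): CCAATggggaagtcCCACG
*Syvn1* (chr19:6046532-6046550, on the strand of the gene): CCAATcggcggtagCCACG

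*Hsp90b1* was the member with 2 elements, and between 25 bases (*Syvn1*) and 193 bases (far copy of *Hsp90b1*) lay between the near end of an element and the start site. With 1 mismatch allowed in CCACG the element stood in 14 of 32 members, against 1.14% of all genes, *Pdia3*, *Pdia4*, *Herpud1*, *Sel1l* and *Ddit3* being added. The core of the UPR element bound by XBP1 (TGACG directly followed by TGG) stood in *Txndc5* and *Txndc11*, against 0.714% of genes. The ATF4 core (TGATG directly followed by CAA) stood in *Herpud1*, against 1.03% of genes. A match describes the letters of the window only. The other 10 members, *Mzb1*, *Manf*, *Sec11c*, *Sec61a1*, *Spcs3*, *Ssr2*, *Ostc*, *Tram1*, *Hyou1* and *Lman1*, had no entry.

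Plasma cells were the main site of the module. The summed level of the 42 genes in plasma cells was 274 UMIs per 10000 for the WT and 364 for the *Postn*-DTR library. Among the 13 classes with at least 20 cells in both libraries, the next was B1 cells, the innate-like B cells of body cavities, with 79.2 in WT and 169 in *Postn*-DTR, 3.46 and 2.16 times lower. The *Postn*-DTR value of B1 cells included 70 cells rich in immunoglobulin, and the others were at 66.2, below macrophages. Macrophages (64.0 and 76.5), dendritic cells (68.8 and 53.1), monocytes (61.2 and 56.7), B2 cells (56.2 and 48.2) and T cells (40.4 to 53.3 over 3 classes and both libraries) lay close together, and neutrophils were lowest with 19.3 and 25.5. Of these 13 classes plasma cells and B1 cells came first and second and neutrophils last in both libraries, while dendritic cells, for example, stood at rank 3 in WT and rank 6 in *Postn*-DTR. Per cell, a mean of 865 UMIs in WT and 913 in *Postn*-DTR plasma cells came from the 42 genes, against 142 and 376 in B1 cells and 32.9 and 24.1 in B2 cells. These counts were not corrected for depth. Median depth was 29509 UMIs in WT and 24136 in *Postn*-DTR plasma cells, 10360 and 8828 in B1 cells and 4697 and 3941 in B2 cells.

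**Figure D1:**
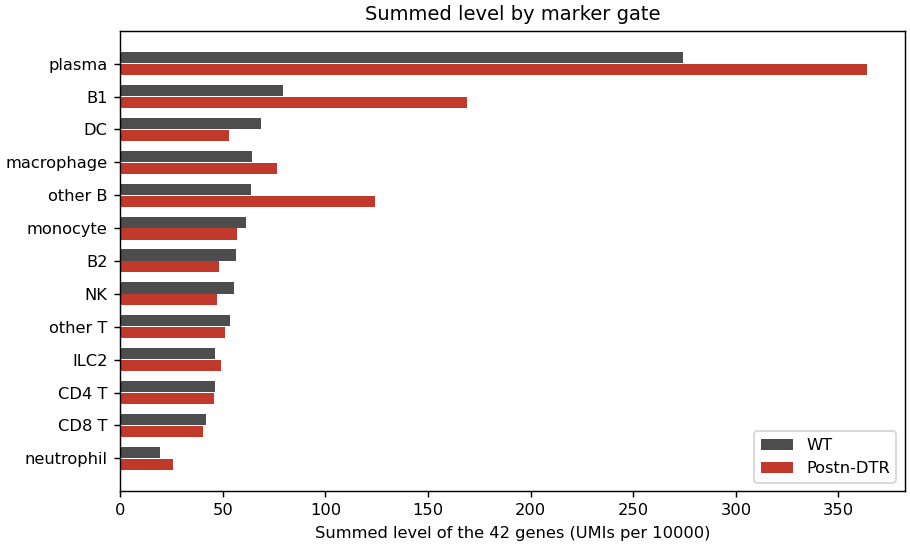
Summed level of the 42 genes (UMIs per 10000, x axis) in each marker gate with at least 20 cells in both libraries, 1 bar per library, WT in grey and *Postn*-DTR in red, with no error bars since each group was 1 library. Plasma cells stood at 274 and 364, and the red bars of B1 cells (169) and other B cells (124) exceeded the grey ones (79.2 and 63.7).

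Plasma cells had the highest level of 13 classes for 37 members in WT and 38 in *Postn*-DTR, and for 36 in both. For *Canx*, the membrane-bound lectin chaperone calnexin, plasma cells were 11th of 13 classes in WT and 12th in *Postn*-DTR and macrophages highest. By totals without immunoglobulin plasma cells were first for 41 of 42 members in both libraries, and for *Canx* they were at rank 2 behind macrophages, with 3.30 against 3.35 in WT and 2.24 against 2.98 in *Postn*-DTR. For how many of all genes plasma cells came first was not counted by either total, so these ranks describe the members only. Set against B1 and B2 cells together, 34 of 42 members were at least 2 times higher in plasma cells in both libraries and 0 were 2 times lower. Over all genes measured, 4.61% were higher and 40.5% lower by the same rule. The members' median log2 ratio of plasma to B cell level was 2.03 in WT and 1.84 in *Postn*-DTR, against −0.98 and −0.97 over all genes. Immunoglobulin made up a median of 61.4% of UMIs in plasma cells of WT mice and 56.0% in those of *Postn*-DTR mice, which lowers the level of every other gene. With immunoglobulin and *Jchain* left out of each cell's total, 41 of 42 members were 2 times higher, against 12.6% of genes higher and 8.3% lower.

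**Figure D2:**
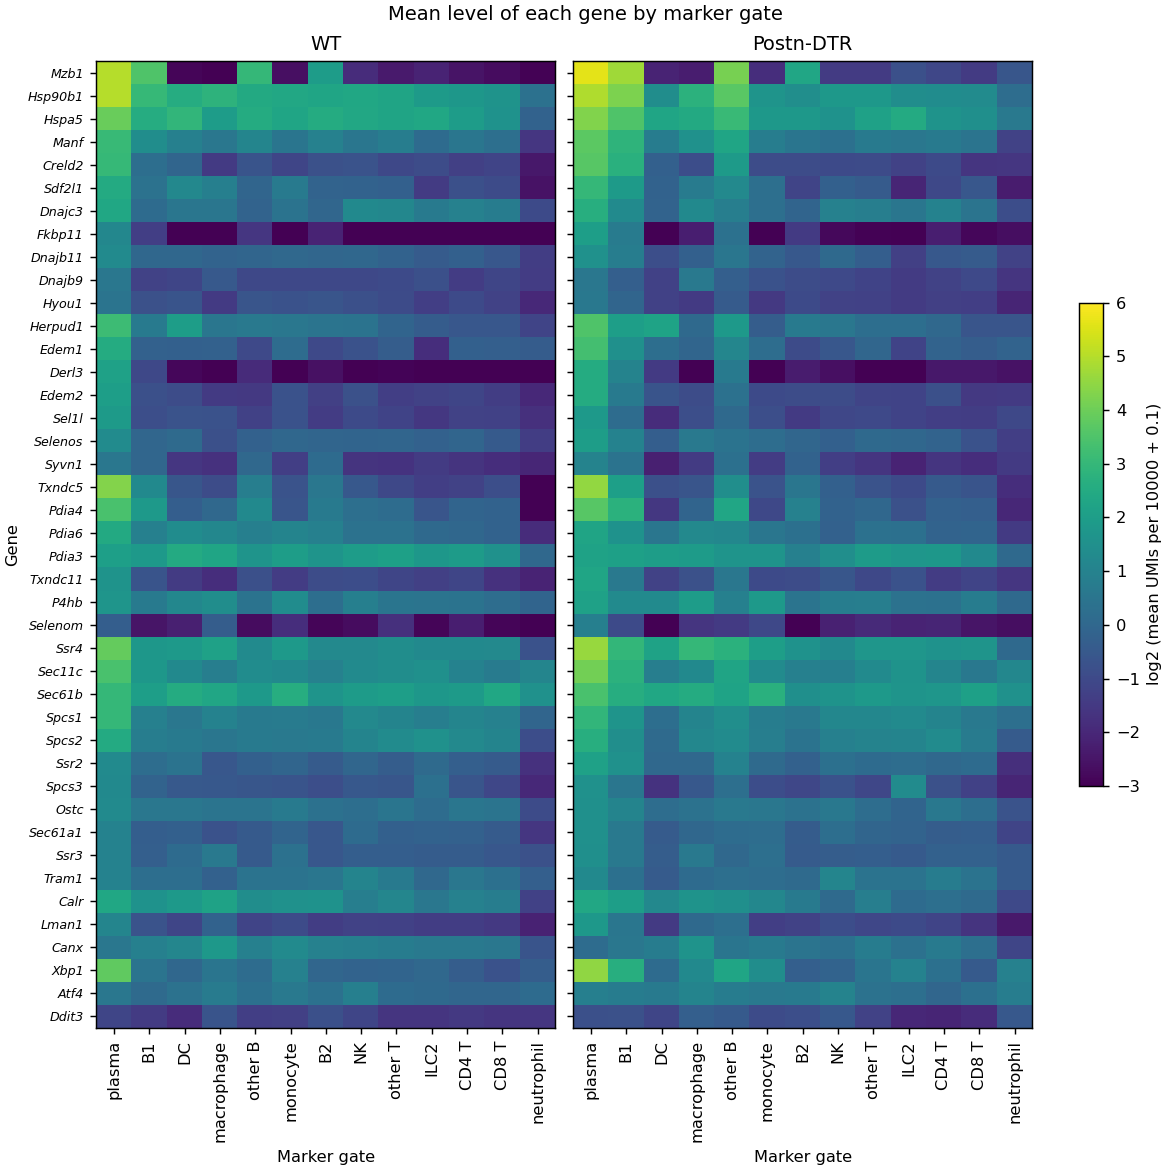
Mean level of each of the 42 genes (rows, grouped by role) in each marker gate (columns), as log2 of UMIs per 10000 plus 0.1, for WT (left) and *Postn*-DTR (right). The plasma column was brightest for 36 genes in both libraries, and the row of *Canx* was brightest in macrophages.

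The members with the highest ratios of plasma to B cell level came from several roles. *Derl3*, a channel component for ER-associated degradation, was at 4.29 in WT plasma cells against 0.151 in WT B cells and at 5.73 against 0.778 in *Postn*-DTR, 26.7 and 7.28 times higher. *Txndc5*, a disulfide isomerase abundant in plasma cells, was 12.1 and 9.86 times higher. *Xbp1* (ENSMUSG00000020484, chromosome 11, 5520659 to 5525893, GRCm38) was at 14.0 against 0.98 and at 22.5 against 2.67, 14.1 and 8.41 times higher. The UMIs do not separate the spliced, active form of *Xbp1* from the unspliced one. *Selenom*, an ER selenoprotein, and *Edem1*, which hands misfolded glycoproteins to degradation, were 12.4 and 11.4 times higher in WT and 10.1 and 7.65 times higher in *Postn*-DTR.

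The 8 members that did not reach the 2-fold difference in both libraries included both other transcription factors. *Ddit3*, which encodes the stress factor CHOP, was at a level of 0.362 in WT plasma cells and 0.422 in WT B cells, and at 0.475 and 0.465 in *Postn*-DTR. *Atf4*, which acts in the PERK arm of the response, was at 1.38 and 1.13 in WT and at 1.75 and 1.53 in *Postn*-DTR. By totals without immunoglobulin, *Atf4* was 2.94 and 2.32 times and *Ddit3* 2.02 and 2.05 times higher in plasma cells, so that whether they differed from B cells by 2-fold turned on the total, and *Xbp1* was 32.4 and 12.5 times higher. *Canx* was at 1.40 in plasma and 1.83 in B cells of WT and at 1.04 and 1.30 in *Postn*-DTR. *Pdia3*, the disulfide isomerase that works with the lectins, was 1.3 and 1.68 times higher in plasma cells, and the ligase *Syvn1* 1.42 and 1.99 times. *Calr* (1.75 and 2.12 times), *Tram1* (1.46 and 2.21) and *Ostc* (1.93 and 1.86) completed the 8. All 11 chaperones and folding helpers passed the 2-fold difference, as did 9 of 11 entry genes, 6 of 7 disulfide enzymes and 6 of 7 degradation genes.

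The B cell side of this comparison was uneven between the libraries. In *Postn*-DTR, 70 of 292 B1-gated cells (24.0%) drew at least 10% of their UMIs from immunoglobulin, against 18 of 595 (3.03%) in WT, with exact intervals of 19.2 to 29.3% and 1.8 to 4.74%. The summed member level of the 70 cells was 493, above that of the plasma cells of the same library. Among B1 cells below 10% immunoglobulin the summed level was 66.5 in WT and 66.2 in *Postn*-DTR. Other B cells showed the same, with 37 of 244 cells (15.2%) in *Postn*-DTR against 3 of 479 (0.626%) in WT and summed levels of 61.3 and 59.7 once these were left out. When UMIs were summed per class instead of averaged over cells, so that deep cells weighed more, 15 of 42 members were 2 times higher in plasma cells in both libraries (2.68% of genes), and with B cells limited to those below 10% immunoglobulin 34 of 42 were (4.36% of genes).

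The *Jchain* limit did not part cells of unlike member level. Cells with 35 to 50 *Jchain* UMIs per 10000, just outside the gate, had a summed level of 373 in WT (17 cells) and 467 in *Postn*-DTR (85 cells), and cells with 50 to 75, just inside, had 410 (23 cells) and 467 (152 cells). In both libraries these cells thus lay above the mean of all plasma cells.

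The next comparison asked whether plasma cells of *Postn*-DTR mice carried the module at another level than those of WT mice. In *Postn*-DTR, 13 of 42 members were at least 1.5 times higher and 0 were 1.5 times lower, whereas 8.56% of the 9949 genes measured in plasma cells were higher and 11.7% lower. The ratio was above 1 for 36 members, with a median log2 ratio of 0.40 against 0.00 over all genes. The 13 were *Xbp1*, *Mzb1*, *Creld2*, *Fkbp11*, *Manf*, *Edem1*, *Selenos*, *Txndc11*, *Selenom*, *Sec11c*, *Ssr2*, *Ssr4* and *Lman1*, drawn from all 6 roles. When immunoglobulin was left out of the totals, 4 of 42 were 1.5 times higher (*Selenom*, *Fkbp11*, *Ssr2* and *Ssr4*) and 0 lower, against 6.37% and 17.0% of genes, with a median of 0.22 against −0.13. The size of the difference thus moved with the choice of total, and 32 members had a ratio above 1 by the totals without immunoglobulin.

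**Figure D3:**
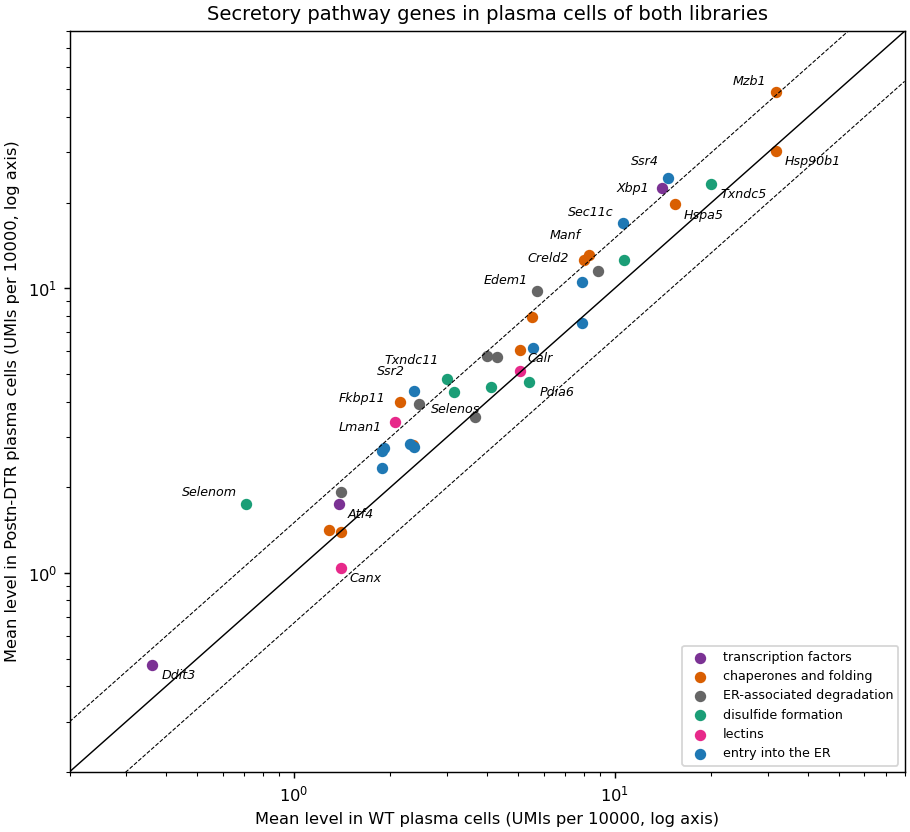
Mean level of each of the 42 genes in WT (x axis) and *Postn*-DTR (y axis) plasma cells, in UMIs per 10000 on log axes, coloured by role, with the line of equality and dashed lines at 1.5-fold. The 13 genes on or above the upper dashed line include *Selenom*, *Xbp1* and *Ssr4*, and no gene lay below the lower one.

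Among the transcription factors, *Xbp1* was at 14.0 ± 7.54 (SD over 600 cells) in WT and 22.5 ± 14.6 (SD over 2054 cells) in *Postn*-DTR. This was 1.61 times higher, and the log2 ratio of summed UMIs was 0.63 (0.61 to 0.65). The cells of the libraries overlapped widely, but 74.1% of the *Postn*-DTR cells lay above the WT median. *Atf4* (1.26 times) and *Ddit3* (1.31 times) were within 1.5-fold.

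The chaperones divided. *Mzb1*, a chaperone of B lineage cells that helps to assemble IgM, was at 31.7 in WT and 49.0 in *Postn*-DTR plasma cells, and *Creld2* and *Manf*, targets of the stress response that are themselves partly secreted, were at 8.0 and 12.6 and at 8.34 and 13.1. *Fkbp11*, a prolyl isomerase of secretory cells, was at 2.14 and 3.98, 1.86 times higher. The large general chaperones differed less. *Hspa5*, which encodes BiP, the master chaperone and sensor partner of the ER, was at 15.4 and 19.7, 1.28 times higher. *Hsp90b1*, which encodes GRP94, was at 31.7 and 30.4, with 50.1% of the *Postn*-DTR cells above the WT median. The DnaJ proteins that serve BiP were close to equal, with ratios of 1.20 for *Dnajc3*, 1.20 for *Dnajb11* and 0.994 for *Dnajb9*. *Sdf2l1*, a partner of *Dnajb11*, was 1.43 times higher, and *Hyou1*, a large relative of BiP that exchanges its nucleotide, 1.10 times.

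The enzymes of disulfide formation spanned most of the range of the module. *Selenom* was at 0.709 in WT and 1.75 in *Postn*-DTR, 2.44 times higher, with UMIs in 64.8% and 72.3% of the cells. *Txndc11*, which links disulfide exchange to degradation, was at 3.01 and 4.81. Of the classic disulfide isomerases, *Pdia4* was at 10.7 and 12.6, *Pdia3* at 4.10 and 4.50 and *P4hb* at 3.15 and 4.32, all within 1.5-fold, as was *Txndc5* (1.17 times). *Pdia6*, listed in the files by its Ensembl identifier, was at 5.40 and 4.70. Of the lectins, *Lman1*, the cargo receptor ERGIC-53, was at 2.06 and 3.38 and *Calr* at 5.06 and 5.14. *Canx*, at 1.40 and 1.04, had the lowest ratio of all members (0.747), with a log2 ratio of summed UMIs of −0.43 (−0.50 to −0.37). *Calr* and *Canx*, the lectins that hold glycoproteins for folding, were thus near equal or lower in *Postn*-DTR.

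Entry into the ER showed its differences in particular subunits. *Ssr4*, a subunit of the translocon-associated protein complex, was at 14.6 in WT and 24.5 in *Postn*-DTR plasma cells. It separated the libraries most of all members: 87.4% of the *Postn*-DTR cells lay above the WT median, and their 25th percentile of 17.0 exceeded the WT median of 12.4. Of the other subunits of that complex, *Ssr2* was at 2.37 and 4.35 (1.83 times higher) and *Ssr3* at 1.88 and 2.69 (1.43 times). *Sec11c*, a catalytic subunit of the signal peptidase, was at 10.6 and 16.9, 1.59 times higher. The accessory subunits of the peptidase differed less, *Spcs1* at 7.91 and 7.54, *Spcs2* 1.11 times higher and *Spcs3* 1.23 times. Of the channel itself, *Sec61b* was at 7.93 and 10.5 and *Sec61a1*, which forms the pore, at 1.91 and 2.74. *Tram1*, which helps chains into the membrane (1.24 times), and the oligosaccharyltransferase subunit *Ostc* (1.16 times) were within 1.5-fold.

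Of the degradation genes, *Edem1* was at 5.73 and 9.78 (1.71 times higher) and *Selenos*, a selenoprotein that ties the p97 extraction motor to the ER membrane, at 2.46 and 3.91 (1.59 times). *Herpud1*, an organizer of the degradation complex, was at 8.85 and 11.5, and *Edem2*, which trims mannose from misfolded glycoproteins, was 1.44 times higher. *Derl3* (1.34 times) and *Syvn1* (1.37 times) were likewise within 1.5-fold, and *Sel1l*, the partner of the ligase *Syvn1*, was at 3.67 and 3.54. Members of one physical complex thus had unlike ratios in the signal peptidase and in the SEL1L-SYVN1 complex. The 9 members with an ER stress element had a median log2 ratio of 0.26, and 1 of them, *Creld2*, was at least 1.5 times higher. The 23 with a promoter and no element had a median of 0.41, and 7 were higher, beside 8.56% of all genes. By totals without immunoglobulin the medians were 0.07 and 0.23. Whether these sets differed was not tested.

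Because the share of immunoglobulin differed between the libraries, plasma cells were split by it and member levels were taken per 10000 UMIs that were not immunoglobulin. Between 20 and 40% immunoglobulin, the summed level of the 42 genes was 632 in WT (62 cells) and 826 in *Postn*-DTR (272 cells). Between 40 and 60% it was 656 (198 cells) and 833 (978 cells), and at 60% or more it was 688 (328 cells) and 697 (757 cells). The values of the libraries were thus farther apart in cells of low and middle load than in those of the highest load, a pattern that was not tested. Below 20% the values were 273 and 648, but from 12 and 47 cells.

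**Figure D4:**
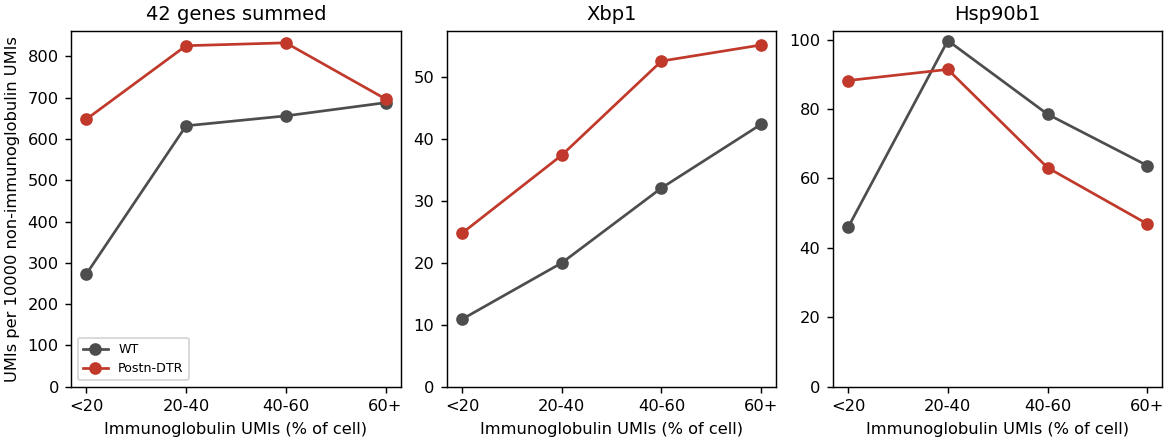
Level in plasma cells per 10000 UMIs that are not immunoglobulin (y axis) by the share of immunoglobulin UMIs in the cell (x axis), for the 42 genes summed, *Xbp1* and *Hsp90b1*, with WT in grey and *Postn*-DTR in red. The summed curves met at 688 and 697 in the highest bin, *Xbp1* increased with load in both libraries, and *Hsp90b1* decreased from the 20 to 40% bin onward. The lowest bin held 12 WT cells.

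By member, 15 of 42 were at least 1.5 times higher in *Postn*-DTR and 1 lower between 20 and 40% immunoglobulin (11.8% and 16.0% of genes). Between 40 and 60%, 12 were higher and 0 lower (8.65% and 20.7% of genes). At 60% or more, 1 was higher and 1 lower (7.13% and 12.4% of genes), and the median log2 ratio over members was 0.00, against 0.45 and 0.37 in the lower bins. The log2 ratio of *Xbp1* was 0.90 in the 20 to 40% bin, 0.71 in the next (32.1 in WT, 52.6 in *Postn*-DTR) and 0.38 in the highest (42.4, 55.2). *Mzb1* was at 89.0 and 132, at 74.1 and 117, and at 74.7 and 65.1. *Hsp90b1* was at 99.7 and 91.4, at 78.5 and 63.1, and at 63.7 and 46.9, lower in *Postn*-DTR in each. The difference in *Mzb1* thus changed sign at the highest load and that in *Xbp1* did not.

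Across single plasma cells, members divided by how they followed the immunoglobulin share. Spearman correlations are given as a description over 600 WT and 2054 *Postn*-DTR cells, whose points share a library and depth. *Xbp1* (0.41 in WT and 0.20 in *Postn*-DTR), *Herpud1* (0.39 and 0.33), *Txndc5* (0.35 and 0.31) and *Ssr4* (0.30 and 0.33) were positive in both. In *Postn*-DTR the most negative were *Ssr2* (−0.44), *Mzb1* (−0.42), *Lman1* (−0.38), *Calr* (−0.37), *Hsp90b1* (−0.36) and *Fkbp11* (−0.36), and in WT the same genes lay between −0.12 and 0.03. Over the 42 genes the median was 0.07 in WT and −0.13 in *Postn*-DTR.

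Member levels also differed between isotypes. Most plasma cells were IgM (508 of 600 WT cells and 1800 of 2054 *Postn*-DTR cells), and IgG cells numbered 62 (10.3%, exact interval 8.01 to 13.1%) and 213 (10.4%, 9.08 to 11.8%). The summed member level was 254 in IgM and 433 in IgG cells of WT, and 350 and 478 in *Postn*-DTR. In both libraries, 7 of 42 members were at least 1.5 times higher in IgG than in IgM cells (*Mzb1*, *Creld2*, *Fkbp11*, *Hspa5*, *Hsp90b1*, *Selenom* and *Lman1*) and 2 were lower, against 2.17% and 5.86% of genes. With immunoglobulin left out of the totals, 13 were higher and 2 lower (2.74% and 7.5% of genes). The median immunoglobulin share of IgG cells was 60.5% in WT and 56.5% in *Postn*-DTR, close to the 61.6% and 56.0% of IgM cells. IgA cells, 19 and 9 in number, were too few to compare.

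*Hsp90b1* was at 28.1 in IgM and 60.2 in IgG cells of WT and at 26.8 and 58.6 in *Postn*-DTR, apart by isotype and close by genotype. *Hspa5* was at 14.1 and 26.1 in WT and at 17.9 and 33.5 in *Postn*-DTR. *Mzb1*, known for its work on IgM, was at 27.6 in IgM and 64.2 in IgG cells of WT and at 45.9 and 72.8 in *Postn*-DTR. *Txndc5* ran the other way, at 21.1 in IgM and 11.9 in IgG cells of WT and at 25.3 and 7.77 in *Postn*-DTR. *Ddit3* was the second lower member, at 0.397 and 0.163 in WT and 0.496 and 0.321 in *Postn*-DTR. Within IgM cells, 15 of 42 members were 1.5 times higher in *Postn*-DTR and 0 lower (9.67% and 11.9% of genes), and with immunoglobulin left out of the totals 8 were higher and 0 lower (7.11% and 17.3% of genes). In IgG cells 3 were higher and 2 lower (13.6% and 10.0% of genes). Whether the genotype ratio differed between isotypes could not be tested.

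Plasma cells with UMIs of both *Mki67* and *Top2a*, genes of dividing cells, made up 53 cells of the WT library (8.83%, exact interval 6.69 to 11.4%) and 256 of the *Postn*-DTR library (12.5%, 11.1 to 14.0%). They had summed member levels of 372 against 264 in the other plasma cells of WT and 451 against 352 in *Postn*-DTR, with 10 of 42 members 1.5 times higher in both libraries, and 0 lower, beside 22.2% and 1.18% of all genes. The cycling cells held less immunoglobulin, with medians of 34.9% and 40.7% against 62.3% and 57.5%, and with it left out of the totals the summed levels were 608 against 669 in WT and 760 against 780 in *Postn*-DTR. By those totals 1 member, *Ssr2*, was higher and 1, *Herpud1*, lower in both libraries (6.97% and 4.41% of genes). Outside the cycling cells, 13 of 42 members were 1.5 times higher in *Postn*-DTR (9.77% of genes), and 4 by totals without immunoglobulin (6.56% of genes). Among the cycling cells, 11 were higher and 1 lower (5.97% and 17.9% of genes), and by totals without immunoglobulin again 11 and 1 (8.06% and 13.8%). In IgM cells that did not cycle, 6 were higher by those totals (7.25% of genes).

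Outside plasma cells, 11 classes had at least 50 cells in both libraries and gave 382 pairs of a member and a class with enough UMIs. Of these, 96 were at least 1.5 times higher and 19 lower in *Postn*-DTR, and the B1 gate held 36 and the other B gate 30 of the 96. The other 30 higher pairs and all 19 lower pairs lay outside these 2 gates. Over all genes, 3.39% (NK cells) to 16.7% (neutrophils) were higher in the 11 classes, and 5.48% (neutrophils) to 24.1% (monocytes) lower. All of these comparisons rest on the same 2 libraries. In B1 cells 36 of 42 members were higher and 0 lower (7.48% and 8.68% of genes). In B1 cells below 10% immunoglobulin 4 of 41 were higher, *Fkbp11*, *Herpud1*, *Atf4* and *Ddit3*, and 0 lower (6.66% and 7.17% of genes). In other B cells 30 were higher (7.14% of genes), and 4 of 41 below 10% immunoglobulin, with 2 lower (7.29% and 9.25% of genes). In both gates most of the higher members were thus not past 1.5-fold among cells low in immunoglobulin.

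**Figure D5:**
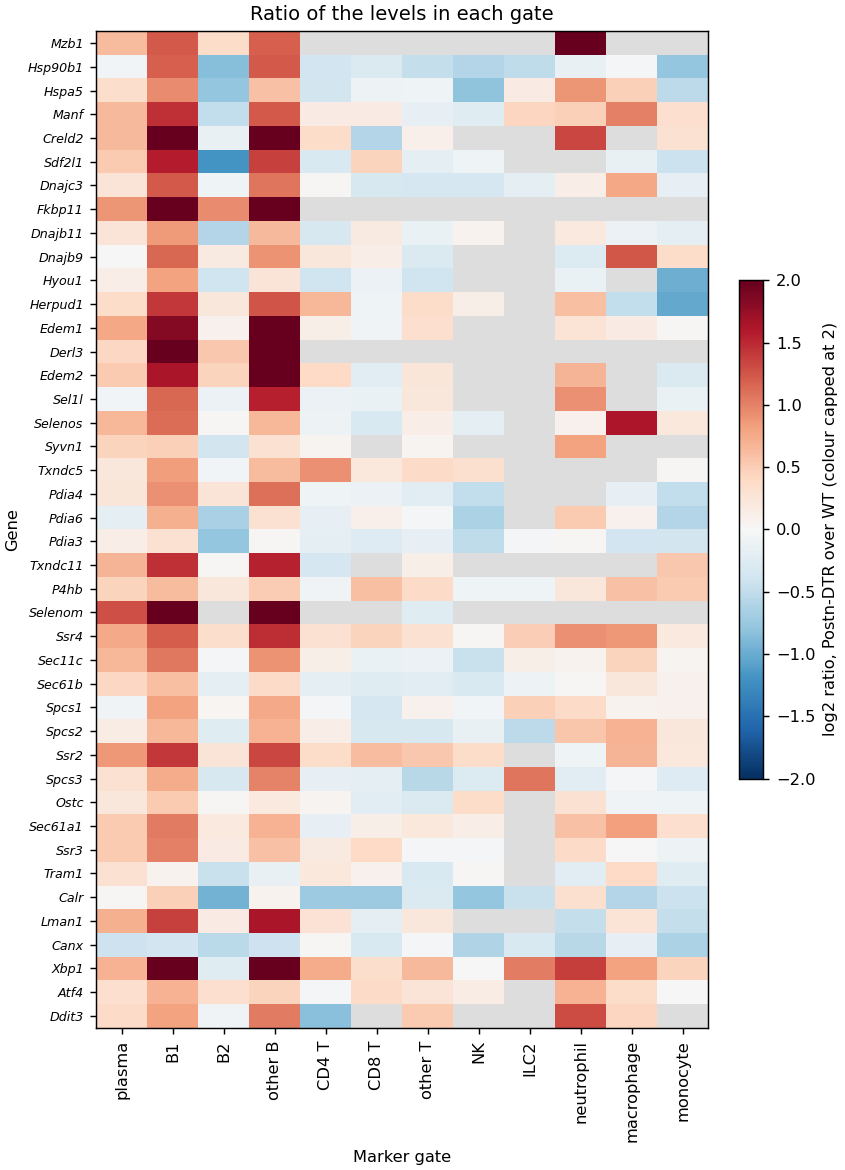
Log2 ratio of the mean level in *Postn*-DTR over WT for each of the 42 genes (rows) in each marker gate (columns), red for higher and blue for lower in *Postn*-DTR, with colours capped at 2 and grey where fewer than 100 UMIs were counted. The B1 and other B columns are red for nearly all genes (36 and 30 of 42 past 1.5-fold), and the B2 column is blue for *Calr*, *Hsp90b1*, *Hspa5* and *Sdf2l1*.

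B2 cells, the follicular B cells, had more lower than higher members past 1.5-fold, but no shift of the module as a group, with a median log2 ratio of −0.06 over members against −0.01 over all genes. Of 41 members measured, 1 was higher, *Fkbp11*, and 6 were lower, against 5.33% and 5.68% of genes. *Calr* was at 2.88 in WT and 1.48 in *Postn*-DTR B2 cells, *Hsp90b1* at 4.74 and 2.63 and *Hspa5* at 5.68 and 3.34. *Sdf2l1*, *Pdia3* and *Pdia6* were the others, and below 10% immunoglobulin *Dnajb11* joined them (1 higher and 7 lower, against 5.3% and 5.71% of genes). These 6 are chaperones, disulfide isomerases and a lectin, and none was lower in plasma cells by 1.5-fold. NK cells had 4 lower members (*Hspa5*, *Pdia6*, *Calr* and *Canx*) of 28 and 0 higher (7.63% and 3.39% of genes). Monocytes had 4 lower (*Hsp90b1*, *Canx*, *Herpud1* and *Hyou1*) of 36 and 0 higher (24.1% and 10.1% of genes).

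*Calr* was 1.5 times lower in 5 of 11 classes, namely B2, CD4 T, CD8 T and NK cells and macrophages. In CD4 T cells it was at 1.86 and 1.12, in CD8 T cells at 1.64 and 0.991 and in macrophages at 4.45 and 2.96. From summed UMIs its log2 ratio was below 0 in each of the 5 and past 1.5-fold in B2 cells (−0.87, −1.03 to −0.72), CD4 T cells (−0.93, −1.28 to −0.61) and macrophages (−0.61, −0.85 to −0.37). *Canx* had a ratio above 1 in 1 of 11 classes, CD4 T cells, and was below 1 in the other 10 and in plasma cells.

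*Xbp1* was 1.5 times higher in 7 of 11 classes, and in 5 of these the call was lost under another setting. In B1 and other B cells its log2 ratio was 0.28 and 0.18 below 10% immunoglobulin, in CD4 T and other T cells it was 0.57 and 0.51 after the subtraction of free RNA described below, and in neutrophils it was within 1.5-fold on summed UMIs. In macrophages it was at 1.31 in WT and 2.29 in *Postn*-DTR and in ILC2 at 0.93 and 1.91, and these calls were kept on summed UMIs (log2 0.95, 0.60 to 1.31, and 1.07, 0.52 to 1.63) and after the subtraction. *Ssr4* had a ratio above 1 in all 11 classes, with log2 ratios from 0.03 in NK cells (2.27 and 2.32) to 1.48 in other B cells (2.36 and 6.60). It was past 1.5-fold in 4 of them, B1, other B, neutrophils and macrophages. Macrophages had 10 of 31 members higher and 1 lower (11.7% and 15.1% of genes), with *Selenos*, *Dnajb9*, *Manf* and *Sec61a1* among the 10. Neutrophils had 11 of 35 higher and 0 lower (16.7% and 5.48% of genes), and their median depth was 9608 UMIs in WT and 3768 in *Postn*-DTR, whose part in the result was not tested. *Xbp1* in neutrophils was at 0.69 and 1.82 as a mean over cells but had a log2 ratio of 0.43 (0.22 to 0.65) from summed UMIs, which is within 1.5-fold. CD4 T cells had 3 members higher and 2 lower (9.95% and 8.72% of genes), CD8 T cells 2 and 2 (7.26% and 9.18%), ILC2 2 and 0 (11.3% and 10.3%) and other T cells 1 and 0 (5.91% and 7.54%).

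*Jchain*, taken here as a mark of free RNA from plasma cells though other sources were not separated, was also higher in T cells, ILC2 and myeloid cells of *Postn*-DTR. Its level in CD4 T cells was 0.796 in the WT library and 1.97 in the other, and in neutrophils it was 0.589 and 2.43. At the ratio of *Mzb1* to *Jchain* in plasma cells, that would give 0.366 UMIs per 10000 of *Mzb1* in *Postn*-DTR CD4 T cells, where 0.369 was measured, and 0.45 in neutrophils, where 0.562 was measured. The reckoning assumes that free RNA has the makeup of plasma cells. In several *Postn*-DTR classes it gave more *Mzb1* than was measured. These were other T cells (0.371 against 0.273), NK cells (0.334 against 0.268), macrophages (0.2 against 0.107), monocytes (0.357 against 0.182) and dendritic cells (0.153 against 0.131). In CD4 T, CD8 T and B2 cells, ILC2 and neutrophils of that library it gave less than was measured. The part of free RNA in these ratios was not tested. The same reckoning gave 0.168 of the 1.15 measured for *Xbp1* in CD4 T cells. With such amounts subtracted, 23 of 30 higher pairs and all 19 lower pairs outside the plasma, B1 and other B gates were still past 1.5-fold. Of the other 7, *Xbp1* in CD4 T and other T cells, *Herpud1* in CD4 T cells and neutrophils, and *Creld2* and *Edem2* in neutrophils were not, and *Mzb1* in neutrophils gave no value, since nothing was left in WT.

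Other genes of the pathway, taken from a list of 75 of which 73 were found, were less concentrated in plasma cells than the 42. Both the members and this list were chosen with earlier results of these data known. The contrast may thus reflect that choice and was not tested. Of the 73, 24 were at least 2 times higher in plasma than in B cells in both libraries and 3 lower, beside the 34 and 0 of 42 members. Over all genes, 4.61% were higher and 40.5% lower. With immunoglobulin out of the totals, 59 of the 73 were 2 times higher, beside 41 of 42 members and 12.6% of all genes. In plasma cells 13 of the 73 were 1.5 times higher in *Postn*-DTR and 1 lower (8.56% and 11.7% of all genes), with a median log2 ratio of 0.31. With immunoglobulin out of the totals 5 were higher and 2 lower (6.37% and 17.0% of all genes), a share of higher genes near that of all genes. *Kdelr3*, a receptor that returns escaped ER proteins, was at 0.0536 and 0.134, *Srp9*, part of the particle that brings ribosomes to the ER, at 3.20 and 5.78, and *Srprb*, a subunit of that particle's receptor, at 0.931 and 1.62. These had the highest ratios. The lowest was that of *Stt3b*, a catalytic subunit of the oligosaccharyltransferase, at 1.55 and 0.649, followed by *Ppp1r15a* (1.05 and 0.774) and *Faf2* (0.325 and 0.263). Of the 12 genes for sensors and stress targets 0 were past 1.5-fold in either direction, and 1, *Ppp1r15a*, was lower by totals without immunoglobulin (log2 −0.59). Export and retrieval had 5 of 18 higher and the signal recognition particle and translocon 3 of 13, beside the same 8.56% of all genes, and 2 each without immunoglobulin.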

How the data were processed

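The deposited matrices hold natural log values: per the file contents, the authors took the natural log of 1 plus UMIs per 10000 UMIs of the cell, rounded to 3 decimals. Reads were processed with Cell Ranger (6.0.0 in the submitters' processing notes, an older version in the study's methods) on mm10. The labels name the 5′ kit and the methods the 3′ kit, and no sort is stated. Values were returned to the linear scale, and UMIs recovered from the smallest step were whole within 0.1 UMI for 99.965% (WT) and 99.908% (*Postn*-DTR) of values. The comparisons had been planned with or without whole counts. Gene and barcode lists are deposited as text, and 1060 unnamed identifiers were named from GENCODE.

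Cells with 200 to 7500 genes and at most 25% mitochondrial UMIs were kept. A cell belonged to a class when it passed exactly 1 gate. Doublets were called with Scrublet (scanpy 1.11.5) at a score of 0.25 in both libraries, a value set after the automatic threshold had marked 2 WT cells, which gave 135 WT (1.56%) and 103 *Postn*-DTR (1.80%) cells. They were left out only in an alternative.

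A level is a mean over cells. Ratios used a pseudocount of 0.01 UMIs per 10000 and genes with at least 100 UMIs, and calls are folds (1.5 between libraries, 2 between classes), not tests. Intervals of ratios of summed UMIs are conditional binomial. All members were accounted for, and those named with values were the 4 highest of each role, those past 1.5-fold in plasma cells, the extremes of plasma over B cells, and *Xbp1*, *Atf4* and *Ddit3*. Others were named after their values were seen. The members, lists and gates were chosen with earlier results of these data known. The code was tested on simulated data. Protein sequences were not analysed here.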

Additional observations from a re-analysis of the deposited data

Results flagged for a closer look

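*Creld2*, a folding helper induced by the unfolded protein response, had ratios of opposite sign in plasma cells and CD8 T cells. Its log2 ratio of *Postn*-DTR over WT was 0.65 in plasma cells and −0.59 in CD8 T cells. The CD8 T ratio rests on low levels, 0.35 in 497 WT cells and 0.229 in 82 *Postn*-DTR cells. Outside plasma cells, the ratio of *Creld2* was above 1 in 6 of the 8 classes measured, and CD8 T cells were the 1 class past 1.5-fold lower. The difference between the classes was not tested, since each group was 1 library.

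Cells that passed no marker gate entered no comparison. Their summed level of the 42 genes was 103 UMIs per 10000 in *Postn*-DTR (811 cells) and 57.4 in WT (923 cells). At least 10% of UMIs were immunoglobulin in 91 of the *Postn*-DTR cells (11.2%) and in 7 of the WT cells (0.758%), and among the remaining cells the level was 61.4 and 54.1.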

How the results depend on the processing

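With 1 library of pooled mice per group, differences between mice, captures and genotypes cannot be told apart, and there was no replicate to leave out. No paired analysis was possible because each group had 1 library. The alternatives on B2 cells alone, immunoglobulin limits, IgM cells that do not cycle, and IgG against IgM without cycling cells were chosen after seeing the data, and the causes of the changes below were not tested.

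Plasma over B cells: 34 members became 15 on summed UMIs and 26 at *Jchain* of 100 or more. They became 40 with the median of all genes subtracted and 41 with totals without immunoglobulin. *Postn*-DTR over WT in plasma cells: 13 higher members became 4 with totals without immunoglobulin and 6 in IgM cells that do not cycle by those totals. When cells were thinned to 1000 UMIs, 13 higher and 0 lower became 14 and 1. The shares of all genes then were 23.1% and 20.5%, against 8.56% and 11.7% in the main setting. The median of 0.40 became 0.39 on summed UMIs, with a pseudocount of 0.1, without cycling cells and in IgM cells. It became 0.37 with *Jchain* of 100 or more and at 40 to 60% immunoglobulin by totals without it. With totals without immunoglobulin it was 0.22, and 0.17 in IgM cells that do not cycle by those totals. Plasma cells over the next class, 3.46 in WT and 2.16 in *Postn*-DTR, became 2.43 and 1.31 on summed UMIs, 7.38 and 3.21 without immunoglobulin, 3.93 and 3.41 at *Jchain* of 20, 2.94 and 1.41 at *Jchain* of 100, 3.45 and 2.17 without doublets, and 3.45 in WT with at least 500 genes. Other pathway genes: 24 over B cells became 10 on summed UMIs, 16 at *Jchain* of 100 or more and 59 without immunoglobulin. The 13 higher and 1 lower in *Postn*-DTR became 5 and 2 without immunoglobulin.

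The log2 ratio of the summed level at highest over lowest immunoglobulin load, 1.33 in WT and 0.10 in *Postn*-DTR, became 0.10 and −0.26 in bins of equal cell number over both libraries, 2.26 and 0.55 without cycling cells, and 0.12 and −0.25 without the bin under 20%. That bin held 12 WT and 47 *Postn*-DTR cells. Without cycling cells it held 6 and 19, with median depths of only 1275.5 and 2918 UMIs, so the values of 1.33 and 2.26 rest on few WT cells. Cycling over other plasma cells, 0.49 in WT and 0.36 in *Postn*-DTR, became −0.14 and −0.04 without immunoglobulin and 0.24 and 0.26 with *Mki67* or *Top2a* alone. IgG over IgM, 7 members became 13 without immunoglobulin and 12 without cycling cells. ER stress elements went from 9 to 14 members with 1 mismatch.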

Other observations

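Some small classes outside the comparisons carried the module at levels above most leukocytes. Granulocyte precursors had a summed level of the 42 genes of 188 UMIs per 10000 in WT (19 cells) and 113 in *Postn*-DTR (37 cells), beside 19.3 and 25.5 in neutrophils. Plasmacytoid dendritic cells, which secrete interferon in bulk, had 88.4 (56 cells) and 96.3 (18 cells). Stromal cells had 93.0 (25 cells) and 72.3 (11 cells). Each of these classes had fewer than 20 cells in one library.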
